A study of Mus musculus with 6 samples.

Results

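The genes described here build the secretory pathway of the cell or belong to the stress response of its first compartment, the endoplasmic reticulum (ER). They were chosen by gene symbol and by no expression value, and 57 of the 7340 genes in the deposited table matched. The same symbols match 116 names in the mouse annotation GENCODE M21, and the other 59, among them Atf4, Atf6, Ddit3, Herpud1 and Sec61a1, were not analysed here. The table holds genes with a p below 0.05 in the authors' comparison, so each of the 57 had been selected as different before any count given below. All 57 passed the filter on low values.

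Kidney RNA was sequenced from 6 samples of wild-type (WT) mice. In the IRI group (n = 3) the kidney had undergone ischaemia-reperfusion injury, an interruption of the blood supply followed by its return. The IRI with MK8617 group (n = 3) had the same injury and received MK-8617, a compound that blocks the oxygen-sensing prolyl hydroxylases, the enzymes that target hypoxia-inducible factor (HIF) for breakdown. Both groups therefore share the injury, and no uninjured kidney was analysed here. Sex, age, strain, dose, route and time are absent from the labels, although the table's column names carry the tag 1d, and nothing in them says that replicates were separate animals, so the p-values reflect only how far these samples spread, which may be technical. The treatment field of MK-8617 replicates 2 and 3 reads MK8618 and MK8619 while their titles read MK8617, and the titles were followed. The series' design text calls the samples tumours, while each sample is labelled kidney.

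Proteins bound for secretion, membranes or lysosomes enter the ER while they are made: the signal recognition particle docks the ribosome, the Sec61 channel threads the chain through the membrane, signal peptidase trims it and the oligosaccharyltransferase adds glycans. Folding enzymes form disulphide bonds, COPII-coated vesicles carry the cargo to the Golgi, COPI-coated vesicles bring escaped ER proteins back, and misfolded chains are pulled out and degraded. When unfolded protein accumulates, the membrane sensors IRE1 (gene Ern1), PERK (Eif2ak3) and ATF6 start the unfolded protein response, in which IRE1 splices the mRNA of the transcription factor Xbp1. In kidney tubules this response is known to be engaged by ischaemic injury.

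With MK-8617 the genes divided in part by role, and the roles had been set with earlier results of these data known. The roles also differed in gene length, as described below. Most genes of protein entry and glycan transfer were lower, while stress sensors, their transcription factor Xbp1, the ubiquitin ligase gene Syvn1 and the oxidase gene Ero1l were higher. Folding genes and COPII genes went both ways, and Manf fell among the stress genes. At an adjusted p below 0.05 in limma, 15 of the 57 genes were higher and 25 lower. Among all 6961 tested genes 35.7% were higher and 38.7% lower, against 26.3% and 43.9% of these 57. With DESeq2 on the recovered reads 20 of the 57 were higher (35.1%) and 22 lower (38.6%), against 44.4% and 33.2% of all tested genes. That DESeq2 fit estimated its scaling from the listed genes alone, and the median log2 fold change of all tested genes moved up by 0.087. In limma either call was made for 40 of the 57 (70.2%) and for 74.3% of all tested genes. No overlap between the libraries of the groups was seen for 53 of the 57, of which 19 were higher and 34 lower with MK-8617. Among all tested genes 92.5% did not overlap, 44.8% higher and 47.6% lower, so separation by itself is the rule in this table. The median log2 fold change was -0.33 over these genes and -0.31 over all tested genes. Their combined share of each library was 0.613% to 0.632% with IRI and 0.564% to 0.582% with MK-8617.

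**Figure D1:**
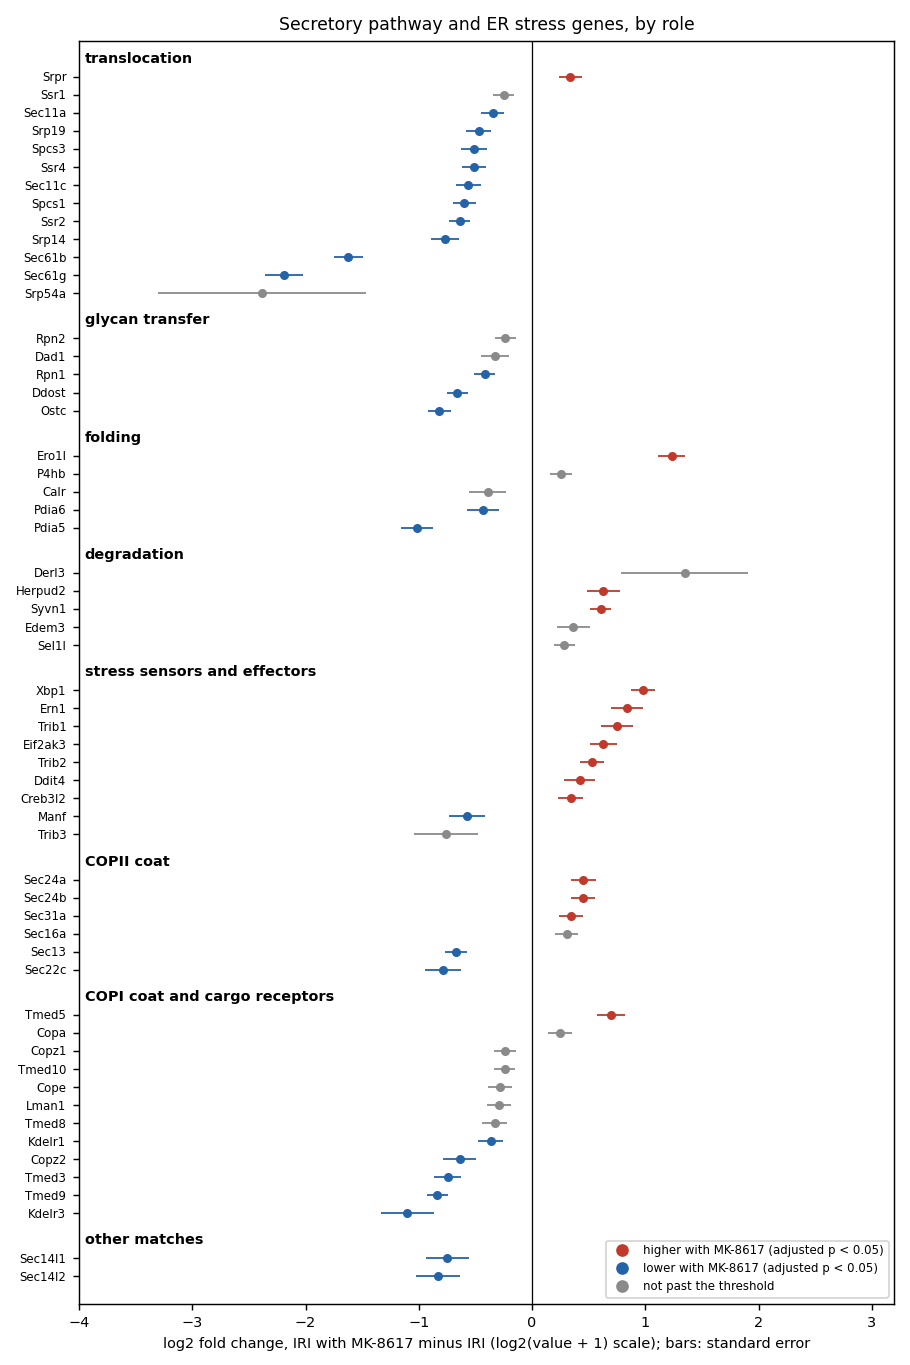
Log2 fold change (IRI with MK-8617 minus IRI, log2(value + 1) scale, x axis) of the 57 genes grouped by role, with standard errors as bars and colours for the limma call. Nearly all translocation and glycan transfer genes lie left of 0, with Sec61g at -2.19 and Sec61b at -1.62, while degradation and stress sensor genes lie mostly right of it, with Xbp1 at 0.98.

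Counted reads per library came to 16835541 to 19508497, and the table's genes held 51.7% to 57.4% of them. Values are given as normalised reads, which are counts divided by the authors' size factor of the library, with means ± SD over 3 libraries. Log2 fold changes are MK-8617 minus IRI in mean log2(value + 1), ± their standard error, and adjusted p-values come from limma with Benjamini-Hochberg adjustment over 18811 genes. Bulk tissue was sequenced, so fewer cells of a type and less RNA per cell cannot be told apart. The kidney label was met by the nephron markers in the table, for example Umod at 21674 to 50299 normalised reads.

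Protein entry into the ER was the role with most lower genes. Of 13 tested members (25 annotated symbols) 10 fell and 1 rose, against 38.7% and 35.7% of all tested genes. The median log2 fold change was -0.56. Sec61g encodes the gamma subunit of the Sec61 channel (ENSMUSG00000078974, GRCm38 chromosome 11, 16500530 to 16508484). Counted in normalised reads, replicates 1, 2 and 3 of IRI held 1303, 1436 and 1601, and those of MK-8617 held 381, 336 and 245. Every MK-8617 library was far below every IRI library, and the MK-8617 mean was 0.222 of the IRI mean (log2 fold change -2.19 ± 0.17, adjusted p = 8.55e-05). Sec61b, the beta subunit (ENSMUSG00000053317, GRCm38 chromosome 4, 47474658 to 47483242), had 1537, 1738 and 1647 normalised reads with IRI and 618, 536 and 452 with MK-8617. Its groups did not overlap either, at a log2 fold change of -1.62 ± 0.13 (adjusted p = 9.95e-05). These subunits were the 2 largest called falls among the 57 genes. The other channel genes Sec61a1, Sec61a2, Sec62 and Sec63 were not analysed here.

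Near-identical copies make the Sec61 subunit values uncertain, because reads shared between copies could be split or dropped in counting. An annotated copy of Sec61g, Gm10177, matches it over 420 bases at 100% identity and is itself listed. It had a mean of 355 normalised reads with IRI and 282 with MK-8617 (log2 fold change -0.33, adjusted p = 0.0967). The copies Gm11575 and Gm16412 match Sec61g over 228 and 259 bases at 97.8% and 98.1% identity and were not analysed here. Sec61b has 3 shorter annotated copies, with 95.8% to 99.4% identity over 163 to 165 bases, which were not analysed here.

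The signal recognition particle and its receptor did not move together. Srp14, which helps to pause translation, had 1230.4, 1328 and 1289 normalised reads with IRI and 874, 759 and 639 with MK-8617, with all MK-8617 libraries lower (-0.77 ± 0.12, adjusted p = 0.00249). Srp19, an assembly factor of the particle, fell by 0.47 on the log2 scale. Srpr, the alpha subunit of the receptor on the ER membrane, rose from 2897, 2549 and 2814 normalised reads to 3477, 3277 and 3682. Its change of 0.34 ± 0.10 (adjusted p = 0.0347) was the role's single rise, and the call was lost without any 1 library other than IRI replicate 3 (lowest log2 fold change 0.28, when IRI replicate 2 was left out). Srpr has a copy, Gm6733, at 93.8% identity over 1947 bases. Srp54a, the GTPase of the particle, was not past the threshold: it had 82.3, 46.5 and 64.2 normalised reads with IRI and 25.6, 1.07 and 31.9 with MK-8617 (-2.38 ± 0.92, adjusted p = 0.0864). MK-8617 replicate 2 holds a single read of it, and the copies Srp54b and Srp54c are 99.6% and 99.5% identical, so its level is uncertain.

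Signal peptidase and the translocon-associated (TRAP) complex, which assists insertion of some chains, were mostly lower. Among peptidase genes Spcs1 fell from 1833 ± 118 to 1214 ± 116 normalised reads (-0.60 ± 0.11, adjusted p = 0.0037). Spcs3 and the catalytic subunit genes Sec11c and Sec11a had log2 fold changes of -0.51, -0.56 and -0.35. Of the TRAP genes Ssr2 had 2729.6, 2808 and 2813 normalised reads with IRI and 1859.5, 1843 and 1662 with MK-8617 (-0.64 ± 0.09, adjusted p = 0.00153). Ssr4 fell by 0.51 on the log2 scale, and Ssr1 (-0.25, adjusted p = 0.0776) was not past the threshold. Exons of genes on the opposite strand overlap 16.3% of Spcs1 and 12.8% of Ssr2, and the kit is not described as strand-specific. With each library's trend on gene length removed, Srp14 (-0.22) and Spcs1 (-0.18) were no longer past the threshold, while Sec61g (-1.97), Sec61b (-1.11) and Ssr2 (-0.32) were. Sec11a was not past it in the count models DESeq2 (-0.26), edgeR (-0.28) and limma-voom (-0.28). These models estimated scaling from the listed genes alone, and the median of all tested genes moved up by 0.087, 0.063 and 0.063. In the authors' deposited comparison Sec11a had -0.35 with an adjusted p of 0.0279. The call was also lost without IRI replicate 1 (-0.34) or 2 (-0.31) or MK-8617 replicate 2 (-0.35) or 3 (-0.29). An annotated copy of Sec11a is 93.5% identical over 742 bases.

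All 5 annotated oligosaccharyltransferase genes of the rule were listed, and in each of them every MK-8617 library lay below every IRI library. Such separation towards lower values was seen in 47.6% of all tested genes. Of these 5 members, 3 fell at the threshold and 0 rose, against 38.7% and 35.7% of all tested genes, with a median of -0.42. Ostc, a subunit that couples the enzyme to the Sec61 channel, had 1225, 1427 and 1444 normalised reads with IRI and 800.2, 725 and 792 with MK-8617 (-0.82 ± 0.10, adjusted p = 0.000863). Ddost (ENSMUSG00000028757, GRCm38 chromosome 4, 138304730 to 138312628), a core subunit, had 2695, 2708 and 2778 against 1682, 1849 and 1647 normalised reads, a change of -0.66 ± 0.09 (adjusted p = 0.0013). Rpn1, ribophorin I, fell by 0.42 on the log2 scale (adjusted p = 0.0112). Dad1 (-0.33, adjusted p = 0.0742) and Rpn2 (-0.23, adjusted p = 0.103) were not past the threshold. The 3 calls were kept under every alternative setting tried.

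Folding genes went both ways, with 1 of 5 higher and 2 lower, against 35.7% and 38.7% of all tested genes. Ero1l encodes the ER oxidase that reloads protein disulphide isomerases and is known as a HIF target gene (ENSMUSG00000021831, GRCm38 chromosome 14, 45283087 to 45318771). It had 485, 494 and 567 normalised reads in the IRI libraries and 1090.1, 1199 and 1353 in the MK-8617 libraries. The lowest MK-8617 library was above the highest IRI library, the mean was 2.36 times that of IRI, and the log2 fold change was 1.23 ± 0.12 (adjusted p = 0.00024), the largest called rise among the 57 genes. P4hb, the main disulphide isomerase that Ero1l reoxidises, had 10777, 11344 and 10929 normalised reads with IRI and 13109, 12838 and 13548 with MK-8617. Its groups did not overlap, but the change of 0.26 ± 0.10 had an adjusted p of 0.0787. It was past the threshold with edgeR (0.32), DESeq2 (0.35) and limma-voom (0.32) on the recovered reads and after correction for length (0.43) or for length and GC content (0.48).

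Other disulphide isomerases were lower. Pdia5 had 389, 458 and 367 normalised reads with IRI and 212, 192 and 191 with MK-8617, so that the MK-8617 mean was 0.49 of the IRI mean (-1.02 ± 0.14, adjusted p = 0.00129). Pdia6, which also tempers IRE1 signalling, had 3367, 4269 and 3068 against 2359.5, 2702 and 2802 normalised reads (-0.43 ± 0.14, adjusted p = 0.045). The Pdia6 call was lost without any 1 library other than IRI replicate 3, for example at -0.30 without IRI replicate 2, with either trend removed (-0.36 and -0.35), and with edgeR (-0.38), DESeq2 (-0.35) and limma-voom (-0.37). Calr, the lectin chaperone calreticulin, ranged from 6769 to 10600.4 normalised reads with IRI and from 6023 to 6944 with MK-8617. These ranges overlap, and the change of -0.39 ± 0.16 was not past the threshold (adjusted p = 0.105). IRI replicate 2 was the highest library for Calr, Pdia6 and Pdia5 alike. Per length, the 57 genes were led by P4hb, with a mean FPKM of 217 with IRI and 256 with MK-8617, and by Calr, with 171 with IRI and 126 with MK-8617. Ero1l stood at an FPKM of 5.48 with IRI and 12.8 with MK-8617.

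**Figure D2:**
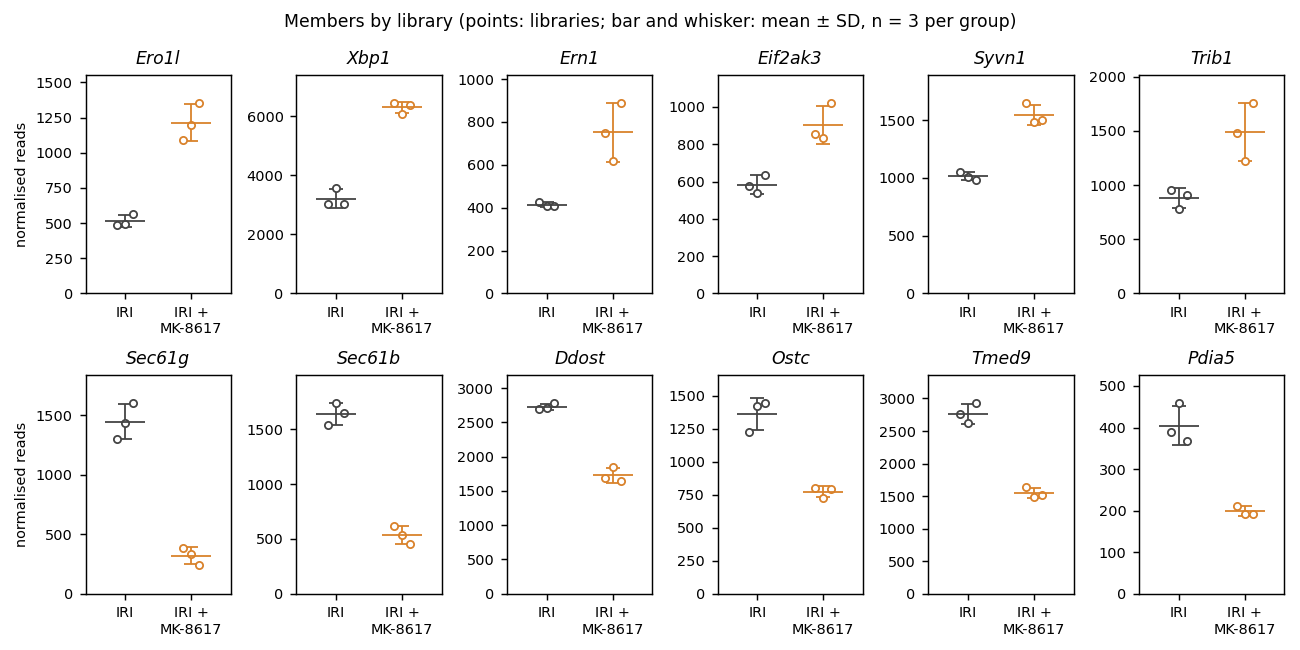
Normalised reads (y axis, from 0) of 12 members in each library, with points for libraries and bars for the mean ± SD of 3. In all 12 panels the groups do not overlap: Ero1l, Xbp1, Ern1, Eif2ak3, Syvn1 and Trib1 are higher with MK-8617, and Sec61g, Sec61b, Ddost, Ostc, Tmed9 and Pdia5 are lower.

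Of 5 tested members of ER-associated degradation 2 rose and 0 fell at the threshold, with a median of 0.61. Since 35.7% of all tested genes rose and 38.7% fell, the rises are near the share of the table. Further degradation genes outside the symbol rule, given below, include falls. Syvn1 encodes HRD1, the membrane ubiquitin ligase at the centre of this pathway (ENSMUSG00000024807, GRCm38 chromosome 19, 6046576 to 6053712). It had 1049.6, 1008 and 982 normalised reads with IRI and 1646, 1486 and 1502 with MK-8617, with a narrow spread in both groups (0.61 ± 0.09, adjusted p = 0.00192). Sel1l, the partner that stabilises HRD1, was also higher in each MK-8617 library (1446, 1539 and 1583 against 1841, 1764 and 1953 normalised reads), but its change of 0.28 ± 0.09 had an adjusted p of 0.0505. Herpud2, a HERP family member, rose by 0.63 ± 0.14 (adjusted p = 0.0116), a call lost without MK-8617 replicate 3 (0.54). Edem3, a mannosidase that tags misfolded glycoproteins, overlapped between groups (0.36, adjusted p = 0.105). Derl3, a derlin of the degradation channel, was low per length, at a mean FPKM of 0.288 with IRI and 0.783 with MK-8617, as was Srp54a, at 0.68 with IRI and 0.204 with MK-8617. For Derl3 the 5.68, 17.3 and 7.67 normalised reads with IRI overlapped the 23.6, 47 and 13.8 with MK-8617. The Derl3 log2 fold change of 1.35 ± 0.56 was not past the threshold (adjusted p = 0.111).

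Stress sensors and effectors were the role with most rises. Of 9 tested members 7 rose and 1 fell, against 35.7% and 38.7% of all tested genes, with a median of 0.53. Xbp1, the transcription factor activated by IRE1 (ENSMUSG00000020484, GRCm38 chromosome 11, 5520659 to 5525893), had 3039, 3575 and 3022 normalised reads with IRI and 6449, 6091 and 6381 with MK-8617. All MK-8617 libraries were above all IRI libraries, at 1.96 times the mean (0.98 ± 0.10, adjusted p = 0.000412). Reads were counted per gene, so spliced and unspliced Xbp1 mRNA, which tell whether IRE1 is active, were not separated. The sensor gene Ern1 itself had 426, 409 and 408 normalised reads with IRI and 750.0, 616 and 888 with MK-8617 (0.84 ± 0.14, adjusted p = 0.00288). The IRI libraries lay close together, and the MK-8617 libraries were all higher and more spread. Eif2ak3, the PERK gene, had 575, 536 and 636 against 854, 835 and 1021 normalised reads, again without overlap (0.63 ± 0.12, adjusted p = 0.00506).

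Of the tribbles pseudokinase genes, 2 of 3 rose. Trib1 and Trib2, adaptors that direct COP1-dependent degradation of C/EBP factors, rose by 0.75 ± 0.14 and 0.53 ± 0.10 (adjusted p = 0.00532 and 0.00582). Trib1 had 951, 777 and 906 normalised reads with IRI and 1485, 1226 and 1757 with MK-8617. Trib3, a target of ATF4 and CHOP, had 247, 191 and 141 normalised reads with IRI and 157, 85.4 and 101 with MK-8617. MK-8617 replicate 1 of Trib3 lies inside the IRI range, and the change of -0.76 ± 0.28 was not past the threshold (adjusted p = 0.077), though it was without MK-8617 replicate 1 (-1.01) or IRI replicate 3 (-0.97). Ddit4, the mTORC1 inhibitor REDD1 that hypoxia and ER stress are known to induce, had 1089, 925 and 1321 normalised reads with IRI and 1460.0, 1572 and 1389 with MK-8617, a rise of 0.42 ± 0.13 at an adjusted p of 0.0471. That call was lost without any 1 library other than IRI replicate 3, for example at 0.41 without IRI replicate 1. With the length trend removed the log2 fold change of Ddit4 was 0.77. Creb3l2, an ER-anchored transcription factor of secretory genes, rose by 0.34 ± 0.11 (adjusted p = 0.0461), a call lost in 10 of the 18 alternative settings, the length trend (0.19) and the omission of IRI replicate 1 (0.38) among them.

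Manf, a secreted ER stress protein and usual target of the unfolded protein response, was the member of this role that fell. It had 1321, 1949 and 1345 normalised reads with IRI, highest in replicate 2, and 988, 1145 and 926 with MK-8617 (-0.57 ± 0.16, adjusted p = 0.0272). The Manf call was lost without MK-8617 replicate 1 (-0.55) or 3 (-0.51) and after correction for length (-0.48) or for length and GC content (-0.44). Exons of other genes cover 9.25% of it.

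COPII genes, which form the coat for export from the ER, rose in 3 and fell in 2 of 6 tested members. The shares among all tested genes were 35.7% and 38.7%. Sec24a and Sec24b, cargo-binding subunits of the inner coat, rose by 0.45 ± 0.11 and 0.45 ± 0.11 (adjusted p = 0.0159 and 0.0135). Sec24b had 939, 893 and 967 normalised reads with IRI and 1288, 1139.8 and 1406 with MK-8617. Sec31a, of the outer cage, rose by 0.34 ± 0.11, while its cage partner Sec13 fell. Sec13, which is also a nuclear pore component, had 1807, 1797 and 1830.0 normalised reads with IRI and 1242, 1065 and 1112 with MK-8617 (-0.67 ± 0.10, adjusted p = 0.00146). Sec22c, related to the SNARE protein of ER-Golgi vesicles, fell from 246, 249 and 251 to 136, 132 and 164 normalised reads (-0.79 ± 0.16, adjusted p = 0.00649). Sec16a, the scaffold of ER exit sites, had a change of 0.31 (adjusted p = 0.0507), past the threshold with edgeR (0.37), DESeq2 (0.40) and limma-voom (0.37) on the recovered reads. The calls of the 3 rises were less steady than those of the 2 falls. Without MK-8617 replicate 1 none of the 3 was past the threshold, although the log2 fold changes stayed positive (Sec24a 0.43, Sec24b 0.44, Sec31a 0.39). Without MK-8617 replicate 3, or with the length trend removed, only Sec24b was past it.

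COPI coat and cargo receptor genes fell in 5 and rose in 1 of 12 tested members, with a median of -0.31, the same as the table. Falls were thus near the 38.7% of all tested genes, of which 35.7% rose. Tmed9, a p24 cargo receptor of the early secretory pathway (ENSMUSG00000058569, GRCm38 chromosome 13, 55573732 to 55597697), had 2757, 2619 and 2925 normalised reads with IRI and 1639, 1487 and 1521 with MK-8617 (-0.84 ± 0.09, adjusted p = 0.000513). Its relative Tmed3 fell by 0.75 on the log2 scale (adjusted p = 0.00229), while Tmed5, of the same p24 family, rose. Tmed5 had 1491, 1313 and 1677 normalised reads with IRI against 2231, 2289 and 2729.6 with MK-8617 (0.70 ± 0.12, adjusted p = 0.00388). The Tmed5 call was lost after correction for length and GC content (0.32). Tmed10 and Tmed8 had log2 fold changes of -0.24 and -0.33 and were not past the threshold (adjusted p = 0.0738 and 0.0502).

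The KDEL receptor genes, whose products return escaped ER chaperones, fell in both listed members. Kdelr3 had 244, 335 and 370.0 normalised reads with IRI and 194, 137 and 115 with MK-8617, with MK-8617 replicate 1 nearest to the IRI libraries (-1.10 ± 0.23, adjusted p = 0.00856). Kdelr1 fell by 0.36 on the log2 scale (adjusted p = 0.0384), a call lost in 11 of the 18 alternative settings, every omission of a library among them. After either correction neither receptor gene was past the threshold (Kdelr3 -0.64 and -0.60, Kdelr1 -0.04 and 0.0091, the last with its sign turned). Of the coat subunits Copz2 fell by 0.64 on the log2 scale (adjusted p = 0.0123), a call also lost with the length trend removed (-0.39). Copa, Cope and Copz1 had log2 fold changes of 0.24, -0.28 and -0.24, none past the threshold, and Lman1, the ERGIC-53 cargo lectin, -0.29.

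The symbol rule also took Sec14l1 and Sec14l2, lipid-binding proteins that are no part of the ER machinery. Sec14l1 fell by 0.75 on the log2 scale (adjusted p = 0.019), with an IRI range of 1799.8 to 3177 normalised reads, and Sec14l2 fell by 0.83 (adjusted p = 0.0133). The Sec14l1 call was lost without IRI replicate 1 (-0.67) or MK-8617 replicate 2 (-0.75) or 3 (-0.69).

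**Figure D3:**
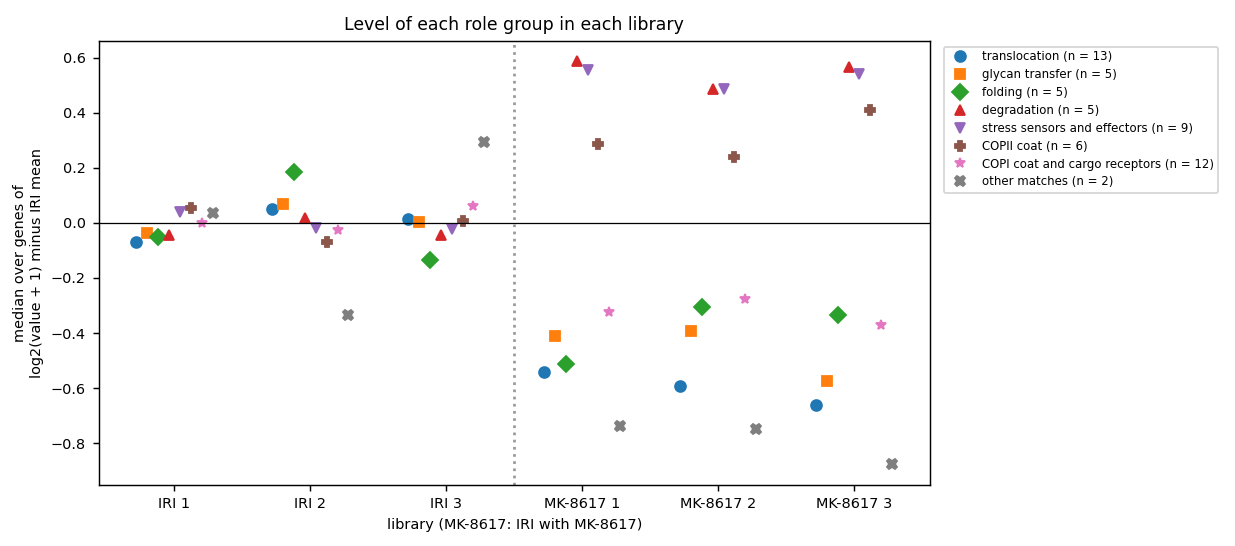
Median over the genes of each role of log2(value + 1) minus the IRI mean (y axis) in each of the 6 libraries (x axis). In the 3 MK-8617 libraries the stress sensor median lies at 0.56, 0.49 and 0.54 and the translocation median at -0.54, -0.59 and -0.66, while IRI libraries stay between -0.13 and 0.18 in all roles but the 2 Sec14l genes.

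The role medians were alike across the MK-8617 libraries. Translocation genes stood at -0.54, -0.59 and -0.66 in MK-8617 replicates 1, 2 and 3 relative to the IRI mean, and degradation genes at 0.59, 0.49 and 0.57. No MK-8617 library carried a role's direction alone. Summed over their members, stress sensors and effectors held 9535 to 10158 normalised reads per IRI library and 14035 to 15012 per MK-8617 library. Xbp1 held the most of these reads, with a mean of 3212 with IRI and 6307 with MK-8617. Glycan transfer genes held 13805 to 14819 normalised reads per IRI library and 10118 to 10928 per MK-8617 library.

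Of a list of 91 further pathway genes that the symbol rule does not match, 38 were tested. These 38 too were listed for a p below 0.05 in the authors' comparison. Of them 11 rose and 22 fell, with a median of -0.37. The shares among all tested genes were 35.7% and 38.7%, with a median of -0.31, and several counts below are near these shares. Chaperone and folding genes fell in 6 and rose in 1 of 9 tested. Erp29, an ER luminal chaperone, went from 3236 ± 172 to 1717 ± 167 normalised reads (-0.92 on the log2 scale). Dnajb9, a co-chaperone and known target of Xbp1, was the one that rose, from 1087 ± 163 to 2105 ± 333 normalised reads (0.95, adjusted p = 0.00215). Hspa5, the main ER chaperone BiP, was not analysed here. Stress response genes rose in 4 and fell in 2 of 8 tested, with Cebpb (1.17) and Sesn2 (0.77) among the rises and Atf5 (-0.93) and Eif2s1, the substrate of PERK (-0.49), the falls. Chac1 (0.59) and Atf3 (0.51) were not past the threshold. In the glycan transfer list the oligosaccharyltransferase genes Stt3a (-0.36) and Tusc3 (-0.31) fell, and so did Ostf1 (-0.58), an osteoclast-stimulating factor that is no glycan enzyme. Vesicle coat and tether genes fell in 6 and rose in 3 of 10 tested, and the rises included Mia3 (0.33) and Mia2 (0.39), which load bulky cargo into COPII carriers. Translocation genes rose in 2 and fell in 3 of 5 tested. Among further degradation genes Aup1, which recruits ubiquitin-conjugating enzymes (-0.37, adjusted p = 0.0458), and the conjugating enzyme gene Ube2g2 (-0.50, adjusted p = 0.0107) fell, unlike the degradation members of the symbol rule, of which none did.

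Promoter sequences are shown because the stress and hypoxia responses act through short DNA motifs known for these genes. Windows of 250 bases before the RefSeq start (GRCm38.p6) were found for 49 of the 57 genes, in 52 windows, with Ero1l filed there as Ero1a. Both strands were searched. The ER stress element, CCAAT and CCACG with 9 unspecified bases between them, bound by ATF6 with NF-Y, was found in 4 windows, 7.69% of the 52, against 0.113% of all 32851 windows and 3 of 6350 windows of other tested genes. Its carriers were Syvn1, Pdia6, Calr and Derl3, printed 5′ to 3′ on the gene's strand with the element in capitals, which reads reversed in Calr and Derl3.
Syvn1: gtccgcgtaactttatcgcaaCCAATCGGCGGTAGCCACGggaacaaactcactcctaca
Pdia6: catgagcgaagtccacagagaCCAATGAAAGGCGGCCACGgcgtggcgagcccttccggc
Calr: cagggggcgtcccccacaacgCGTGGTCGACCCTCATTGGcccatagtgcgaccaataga
Derl3: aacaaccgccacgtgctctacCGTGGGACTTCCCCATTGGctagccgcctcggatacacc
These stretches lie at chr19:6046511-6046570 (plus strand), chr12:17266470-17266529 (plus), chr8:84847055-84847114 (minus) and chr10:75893221-75893280 (plus). The carriers did not share a direction: as given above, Syvn1 rose, Pdia6 fell, and Calr and Derl3 were not past the threshold, with log2 fold changes of opposite sign. The element TGACGTGG, bound by XBP1 and ATF6, was in the window of Kdelr3 alone, here reversed and in capitals, at chr15:79516348-79516407 (plus strand), and in 0.563% of all windows.
Kdelr3: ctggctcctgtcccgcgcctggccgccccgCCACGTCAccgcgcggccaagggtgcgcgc

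The core ACGTG of the HIF response element was in 24 of the 52 windows (46.2%), in 16.6% of all windows and in 21.2% of those of other tested genes, and it overlaps the XBP1 element above. Of its 24 carriers 6 rose and 8 fell. The core GCGTG was in 26 of 52 windows (50%) and in 42.8% of those of other tested genes, and TTGCATCA, an ATF4 composite motif, was in 0 of the 52 and in 0.791% of all. Shown are the ACGTG matches of Ero1l and Ddit4, the members best known as HIF-responsive, with the core in capitals (reversed in Ero1l), at chr14:45318619-45318648 and chr10:59951941-59951970, both on the minus strand.
Ero1l: gcgcgcgccgctgCACGTccgcaggggagg
Ddit4: gagaacgttgcgaACGTGcgcccggtgcct
The match lies 59 to 63 bases before the RefSeq start of Ero1l and 183 to 187 before that of Ddit4. The Ero1l stretch lies inside the GENCODE gene given above, which reaches to 45318771, so it is not upstream of that annotated start. A match is a run of letters and not evidence of binding.

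Gene length moved with the fold changes. Length here is the gene length that the deposited FPKM implies. Over the 57 genes Spearman's rho between this length and log2 fold change was 0.51. Over all 6961 tested genes, which share the same libraries, it was 0.19. The 15 genes that rose had a median length of 6020 bases and the 25 that fell 3084 bases. Roles differed in length as well, with medians of 2880 bases for folding, 3096 for translocation, 3550 for COPI and 3916 for glycan transfer. Stress sensors stood at 4335, degradation at 5857 and COPII at 7001 bases. Across all tested genes the median log2 fold change was -0.65 in the shortest of 4 equal bins (57 to 2140 bases), -0.40 and 0.33 in the middle bins and 0.39 in the longest. These genes followed it in part: their medians were -0.65 (n = 10), -0.54 (n = 20), -0.23 (n = 13) and 0.32 (n = 14). With each library's length trend removed, which moved the median of all tested genes by 0.30, 13 members were higher and 22 lower, and 10 of the 40 called genes lost their call. Ero1l (1.16), Xbp1 (1.11), Ern1 (0.68) and Sec61g (-1.97) kept their calls. In that fit 9 translocation genes were lower, 6 stress sensor and effector genes higher and 1 COPII gene higher. For GC content rho over the 57 genes was -0.04.

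**Figure D4:**
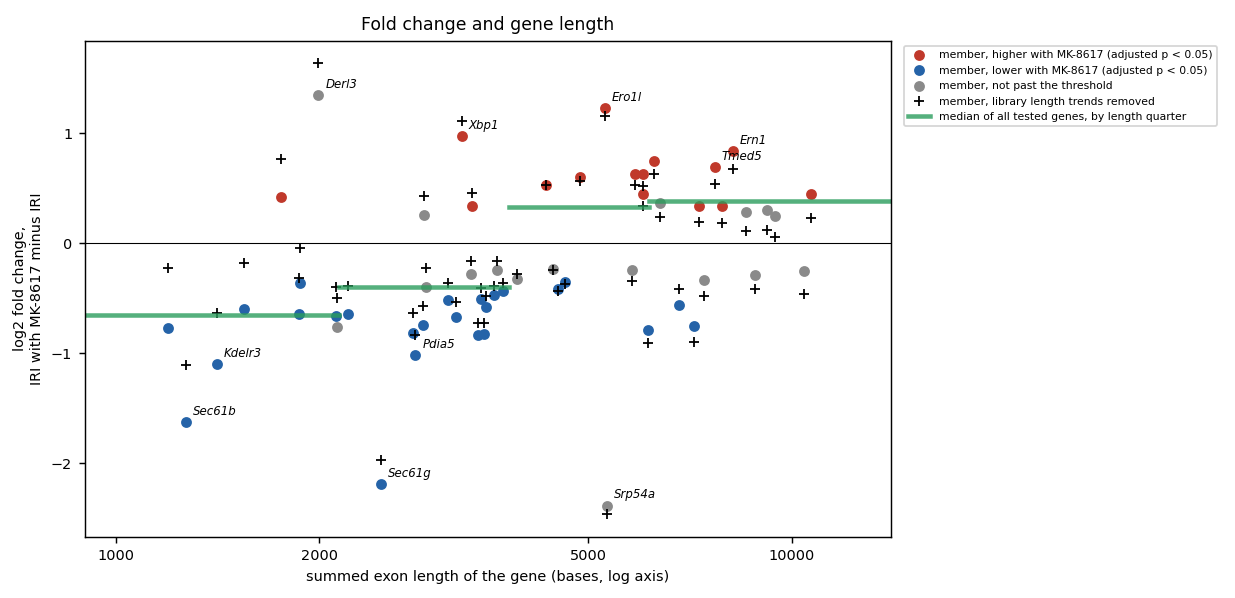
Log2 fold change (y axis) against summed exon length in bases (x axis, log scale) for the 57 genes, coloured by call, with crosses for the values after removal of each library's length trend and green lines for the median of all tested genes in each of 4 length bins, drawn within the axis limits. The green medians climb from -0.65 to 0.39, and Sec61g, Sec61b, Xbp1 and Ero1l lie away from them with and without the trend. Bins and trend use the length implied by FPKM, which can differ from the summed exon length, as for Sec11c.

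Markers of cell types moved with these changes. Proximal tubule markers (3 of 9 listed, 2 higher) summed to 4965 to 9174 normalised reads with IRI and 16229 to 19579 with MK-8617. Fibroblast markers (4 of 5 listed, 3 lower and 1 higher) summed to 12233 to 27836 normalised reads with IRI and 4814 to 5722 with MK-8617, and proliferation markers (4 of 4 listed, all lower) to 376 to 2343 normalised reads with IRI and 80.9 to 113 with MK-8617. IRI replicate 2, the highest library for Calr, Pdia5, Pdia6 and Manf, was also the highest for both of these sums. Of the macrophage markers 7 of 8 were listed, 5 lower and Cd14 higher, with sums of 3245 to 5713 normalised reads with IRI and 3356 to 3944 with MK-8617. Of the antibody-secreting and B cell markers only Sdc1, which tubular cells also express, was listed (lower), and of the T cell markers 0 of 4. No listed marker was at 0 in every library. Collecting duct (2 of 4 listed) and neutrophil markers (2 of 4) were lower, podocyte markers (2 of 4) higher, thick ascending limb markers 1 lower of 2 listed, distal markers 1 higher of 2, and the 1 endothelial marker listed was not past the threshold. The part of these cell types in the changes described above was not tested.

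By the authors' deposited table, 16 of the 57 genes were higher and 28 lower at an adjusted p below 0.05, against 36.3% and 40.8% of its 7340 genes. The 40 genes called here were all among them with the same direction, and the sign agreed for all 57.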

How the data were processed

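Gene expression was measured by RNA sequencing of total RNA from 6 mouse kidney samples, grouped by their titles. HISAT2 2.0.5 and featureCounts 1.5.0-p3 are among the tools in the submitters' processing notes, beside DESeq2 1.20.0, fastp and CASAVA 1.8. Those notes name GRCh38, but the identifiers are of mouse genes, and 7338 of 7340 matched GENCODE M21 (GRCm38). The signal values in the deposited table are read counts per gene over a size factor for each library, as the authors computed them. Every value was a whole multiple of 1 read (tolerance 0.001), and the recovered reads equalled the deposited raw count of IRI replicate 3 in 7340 genes. The deposited FPKM values imply the library totals and gene lengths used. The deposited table also has the authors' p-value and log2 fold change of each gene, with adjusted values that imply 18811 genes, quoted only where named. Another 13 columns were empty.

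Since the values are normalised, limma 3.58.1 (trend, robust, R 4.3.3) was run on log2(value + 1) over 6961 genes that passed filterByExpr (edgeR 4.0.16, recovered reads). The fit was tested on simulated data in which a small part of the genes changed, evenly up and down. That setting differs from this table, which was selected on p and where most genes were called, so the test does not cover it. The +1 understates changes of low genes. The members, their roles and all lists were chosen with earlier results of these data known. Named genes were 13 fixed genes where listed, up to 4 per role with the smallest adjusted p, and called members against their role's direction; others were named after their values were seen. In the list of further pathway genes, 1 gene is counted in the totals and is not reported here. Copies were sought with minimap2 2.31-r1302 (at least 150 matching bases, 90% identity). Replicates differed by more than sampling noise (chi-square per degree of freedom 16.8 to 46.4). A floor of 3 reads was 0.154 to 0.178 CPM and covers counting error only. Alternatives were other pseudocounts (0.5 and 5), filters, count models (edgeR, DESeq2 1.42.0, limma-voom), scalings and adjustment, length and GC trends, the replicate block and omission of each library.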

Additional observations from a re-analysis of the deposited data

How the results depend on the processing

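Across 18 alternative settings 23 of the 40 called genes kept their call in every one, Ero1l, Xbp1, Ern1, Eif2ak3, Syvn1, Trib1, Trib2, Sec61g, Sec61b, Ddost and Ostc among them. Leaving out each library in turn gave 9 to 13 members higher and 20 to 27 lower, with 9 higher without MK-8617 replicate 3, and 12 called genes lost their call in at least 1 such fit. Scaling by library totals gave 12 higher and 26 lower, DESeq2 20 and 22, edgeR and limma-voom 18 and 22 each, no filter 17 and 26, and removal of length and GC trends 12 and 23. Adjusted over the 6961 listed genes tested alone, all 57 passed (21 and 36), in a table selected on p. Kdelr1 reversed to 0.0091 after correction for length and GC content. DESeq2, edgeR and limma-voom estimated scaling factors from the listed genes alone. In these fits the median log2 fold change of all tested genes moved up by 0.087, 0.063 and 0.063. The cause of the differences between settings was not tested. A replicate block gave 12 higher and 27 lower: Creb3l2, Ddit4 and Sec31a lost their call, Trib3 and Srp54a gained one. Same-numbered libraries correlated at 0.021, 0.116 and 0.115 in their deviations from the group means, so the numbers were not taken as pairs, although each library correlated best with its own number.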
